A study of Homo sapiens with 12 samples.

Results

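Transcripts of 9 genes that build or brake pericellular proteolysis were followed in HK-2 cells, taking every probe set annotated to MMP1, MMP2, MMP3, MMP14, PLAU, PLAUR, TIMP1, TIMP2 or TIMP3, whatever its values. These are 9 of 19775 genes and 22 of 54675 probe sets on the Affymetrix array. HK-2 cells are an immortalised epithelial line from the proximal tubule of the human kidney. The Kbr 24 h and Kbr 48 h cultures had received a compound that the labels call Kbr at a dose given only as high, and the control 24 h and control 48 h cultures its vehicle, with 3 biological replicates in each of the 4 groups. All cultures, controls included, had been treated close to confluence in medium that held epidermal growth factor, insulin, transferrin and hydrocortisone. The submitters' aim was to find expression signatures of kidney toxicity. The values are the deposited log2 GCRMA values, so a difference of 1 is a doubling of signal, and they are relative to other arrays at the same probe set only.

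Matrix metalloproteinases are secreted or membrane-bound zinc enzymes that are made as inactive precursors and cut collagens, other matrix proteins and one another's precursors. Tissue inhibitors of metalloproteinases (TIMPs) block their active sites, and TIMP2 has a second role in that it carries the precursor of MMP2 to MMP14 at the cell surface for activation. Urokinase, encoded by PLAU, is held at the cell surface by its receptor, encoded by PLAUR, and turns plasminogen into plasmin, which degrades fibrin and activates several metalloproteinase precursors. Kidney tubule cells are a known source of urokinase in urine.

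After Kbr the inhibitor TIMP2 and the membrane protease MMP14 were lower than in vehicle cultures, TIMP1 was slightly lower, and urokinase was lower and its receptor higher within each replicate number at the probe sets used for them. At 24 h only TIMP2 passed the limma test among the 6 genes that could be tested, and at 48 h TIMP2, MMP14 and TIMP1 passed, all 3 downward. PLAU was lower and PLAUR higher than control in 3 of 3 replicate numbers at both times, and with all arrays in the fit neither passed until the replicate number was made a block. MMP14, TIMP1 and TIMP2 were likewise lower in 3 of 3 at both times. Among all tested genes, arrays did not overlap for 51.6% at 24 h and 62.8% at 48 h, which alone gives 3 of 3. The full share of genes with 3 of 3 was not counted. The collagenase MMP1 was far lower at 48 h than at 24 h in Kbr and in control cultures, and its Kbr and control arrays overlapped at both times. MMP2, MMP3 and TIMP3 gave no signal over the filter in any array.

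The sequences upstream of 4 of these genes are shown because their transcripts differed between Kbr and control cultures in the fits given further on and RefSeq windows were at hand for them. 5 of the 9 members have a window, each the 250 bases before an annotated transcript start in GRCh38.p14, read 5′ to 3′ on the gene's strand. Capitals mark matches, on either strand, to 3 motifs: the AP-1 site TGANTCA, bound by Fos and Jun proteins, the antioxidant response element core TGACNNNGC, bound by NRF2 with small Maf proteins, and the GC box GGGCGG, bound by Sp-family factors. The windows are PLAUR at chr19:43670170-43670419 on the minus strand, PLAU at chr10:73910360-73910609 on the plus strand (the first of 2 annotated starts), MMP14 at chr14:22836335-22836584 on the plus strand and TIMP1 at chrX:47582186-47582435 on the plus strand.
PLAUR: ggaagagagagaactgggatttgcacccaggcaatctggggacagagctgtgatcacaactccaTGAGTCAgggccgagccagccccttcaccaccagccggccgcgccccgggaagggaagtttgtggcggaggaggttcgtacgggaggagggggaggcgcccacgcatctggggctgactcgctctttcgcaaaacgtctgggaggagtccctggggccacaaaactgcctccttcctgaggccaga
PLAU: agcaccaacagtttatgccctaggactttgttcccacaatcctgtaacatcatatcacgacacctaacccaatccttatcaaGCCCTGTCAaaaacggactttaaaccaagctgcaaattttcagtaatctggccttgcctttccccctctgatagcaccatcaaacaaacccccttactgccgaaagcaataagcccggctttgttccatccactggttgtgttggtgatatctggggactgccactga
MMP14: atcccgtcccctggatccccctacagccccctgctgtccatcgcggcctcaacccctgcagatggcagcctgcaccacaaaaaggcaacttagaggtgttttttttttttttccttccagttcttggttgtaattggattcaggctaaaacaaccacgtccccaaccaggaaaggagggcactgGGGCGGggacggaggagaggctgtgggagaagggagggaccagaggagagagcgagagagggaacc
TIMP1: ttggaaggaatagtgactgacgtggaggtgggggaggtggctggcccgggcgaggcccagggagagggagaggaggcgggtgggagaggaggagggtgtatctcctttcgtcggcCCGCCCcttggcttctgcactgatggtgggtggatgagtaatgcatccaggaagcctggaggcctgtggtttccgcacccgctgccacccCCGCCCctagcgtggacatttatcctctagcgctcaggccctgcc
The PLAUR window holds an AP-1 match 186 to 180 bases before the start, a motif found in 6.57% of the 35116 RefSeq windows of 250 bases. The PLAU window holds the antioxidant response element core on its minus strand, 168 to 160 bases before the start, and 10.9% of all windows hold one. The window of the second PLAU start, chr10:73910882-73911131, holds no such core but 3 GC boxes, at 66 to 61, 51 to 46 and 40 to 35 bases before that start, and which start these cells use was not measured. GC boxes lie 66 to 61 bases before the MMP14 start and, on the minus strand, 135 to 130 and 45 to 40 bases before the TIMP1 start, against 42.6% of windows with at least 1. The matches shown do not overlap one another. They describe the letters of these windows, and no binding was measured.

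The 12 arrays were alike in level, with medians of log2 2.89 to 2.96 and 39.1% to 39.9% of probe sets over log2 4, the level a gene had to exceed in at least 3 arrays to be tested. The array of Kbr 48 h replicate 3 stood apart, with a typical (root mean square) distance from its group's mean of 0.290 against 0.164 to 0.228 in the 11 other arrays, and results that rest on it are given with and without it. All 8 epithelial markers passed the filter but only 6 of 16 proximal tubule markers did (DPP4, SLC3A1, GATM, PAX8, CDH6 and CDH16), with 10 below it. Of the 8 epithelial markers 3 fell at 24 h, and 5 fell and 1 rose at 48 h. Their summed level was log2 15.46 to 15.59 in Kbr and 15.77 to 15.89 in control arrays at 24 h, and 15.47 to 15.55 in Kbr and 15.65 to 15.84 in control arrays at 48 h. Of the fibroblast markers 3 of 10 passed, COL1A1, DCN and LUM, and all 3 fell at both times, while 0 of 7 leukocyte markers and 1 of 6 endothelial markers passed. The summed fibroblast marker level was log2 11.43 to 11.85 in Kbr and 12.37 to 12.88 in control arrays at 24 h, and 10.21 to 10.63 in Kbr and 12.29 to 12.35 in control arrays at 48 h. Summed proximal tubule markers were at log2 12.86 to 13.09 in Kbr and 13.40 to 13.73 in control arrays at 24 h, and at 12.44 to 12.64 in Kbr and 13.53 to 13.91 in control arrays at 48 h. Of the 6 that passed the filter 4 fell and 1 rose at 24 h, and 5 fell and 1 rose at 48 h, PAX8 being the one that rose. All these marker counts are to be read against all tested genes, of which 20% were lower and 12.4% higher at 24 h. At 48 h 32.8% of all tested genes were lower and 26.9% higher. The 18S ribosomal RNA probe sets were 0.49 and 0.51 higher on the log2 scale in Kbr than in control arrays at 24 h and 48 h, with no overlap, while the 3′ minus 5′ differences of GAPDH and ACTB overlapped between groups. These markers move with the same contrasts as the members, and their part in the results below was not tested. In such bulk RNA, fewer cells of a kind and less RNA per cell cannot be told apart.

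TIMP2, a broad metalloproteinase inhibitor, changed most clearly. At 48 h its probe set 231579_s_at read log2 10.74, 10.51 and 10.91 in the Kbr arrays, against 12.48, 12.12 and 12.11 in the control arrays. At 24 h it read 11.78, 11.44 and 11.34 in the Kbr arrays, against 12.35, 12.07 and 11.80 in the control arrays. The groups did not overlap at either time, and the 3 Kbr arrays at 48 h were the lowest of the 12. TIMP2 was -1.52 on the log2 scale at 48 h (SE 0.18, n = 3 arrays per group, limma adjusted p = 3.45e-05), or 0.349 times the control level, and -0.55 at 24 h (SE 0.18, limma adjusted p = 0.0342). The 48 h fall kept its call without any one of the 12 arrays, at -1.62 to -1.40. The 24 h call was lost with only the 24 h groups in the fit (limma adjusted p = 0.0534), on dropping Kbr 24 h replicate 2 (0.0988) or 3 (0.115), and on dropping control 24 h replicate 1 (0.135) or 2 (0.0735). It passed with the replicate number as a block (0.00816).

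The other TIMP2 probe sets ran the same way but not to the same extent. Probe set 224560_at read 9.15, 9.18 and 9.10 in Kbr and 10.72, 10.69 and 10.44 in control arrays at 48 h, a difference of -1.48 (SE 0.19, limma adjusted p = 8.41e-05 over all probe sets), and its 24 h difference of -0.49 passed only with the block (0.0126, against 0.0815 without). For 203167_at the 48 h difference was -0.33, with a 95% interval of -0.73 to 0.06, and its Kbr and control arrays overlapped. That probe set therefore gave a difference several times smaller than its 2 partners, and it passed at 48 h only with the block (0.0347). The level of one probe set says nothing of another's, so the 3 are set beside each other only as differences.

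TIMP1, the other inhibitor with signal, gave high readings on every array and moved little. It read 12.47, 12.60 and 12.79 in Kbr and 12.95, 12.77 and 12.98 in control arrays at 48 h, where 1 Kbr array lay just above the lowest control. At 24 h the readings were 12.73, 12.75 and 12.82 in Kbr and 13.07, 12.94 and 12.96 in control arrays, without overlap. The 48 h difference of -0.28 passed (SE 0.10, limma adjusted p = 0.0347) and the 24 h difference of -0.22 did not (SE 0.10, limma adjusted p = 0.127, 95% interval -0.45 to 0.01). The 48 h call was lost without Kbr 48 h replicate 1 (0.127) or 2 (0.0846), without control 48 h replicate 1 (0.0908) or 3 (0.105), and when only the 48 h groups were fitted (0.107). TIMP3, an inhibitor that stays bound to the matrix, was read by 4 probe sets that lay between 2.03 and 2.47 in every array.

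**Figure D1:**
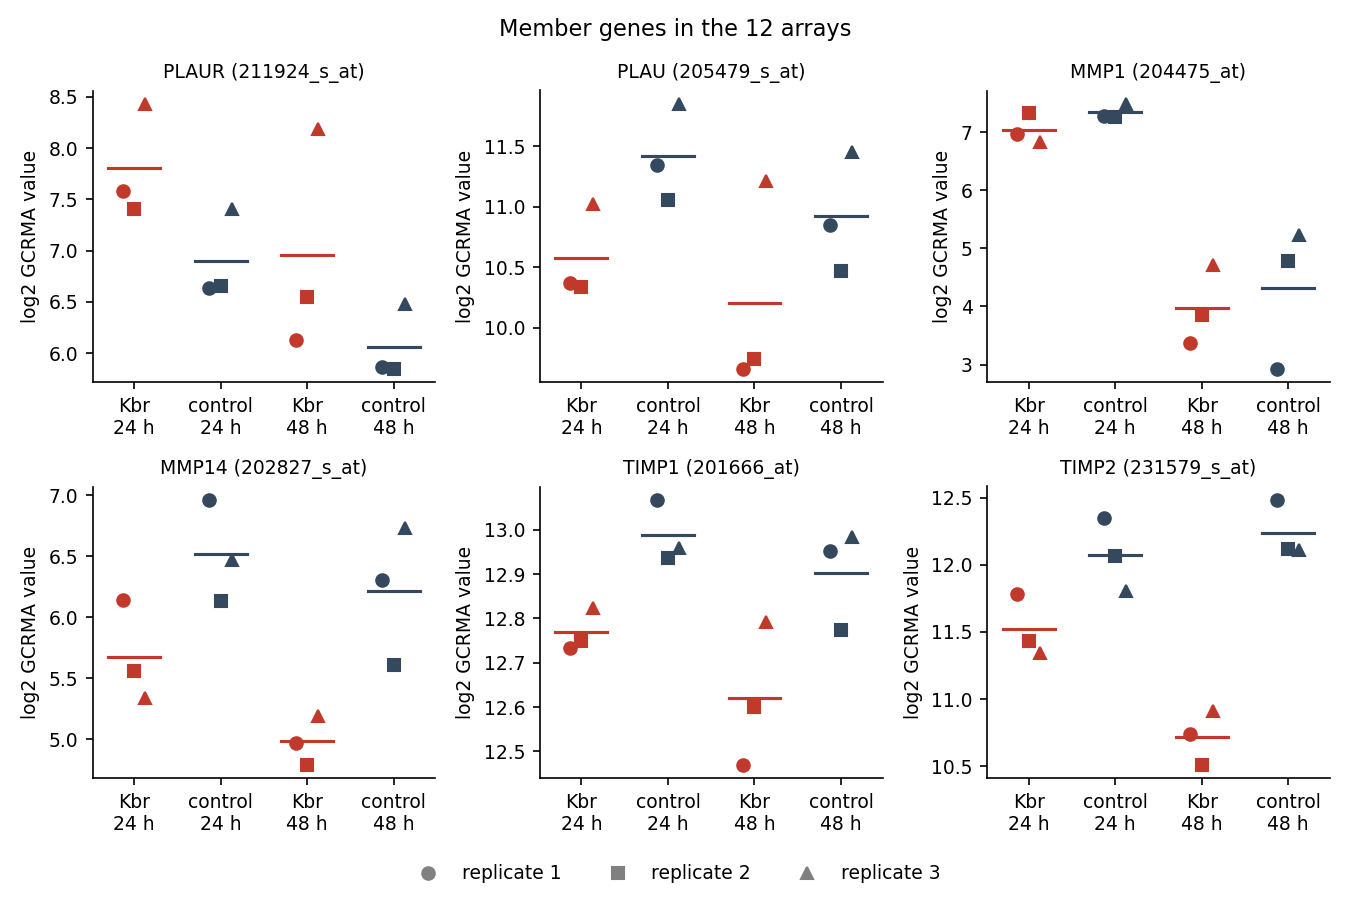
Log2 GCRMA value of the probe set used for each of the 6 tested genes in the 12 arrays, with Kbr in red and control in blue, marker shapes for replicates 1 to 3 and a bar at each group mean. TIMP2 and MMP14 are lowest in the Kbr 48 h arrays, replicate 3 is the highest array of every group for PLAU and PLAUR, and MMP1 separates 24 h from 48 h.

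MMP14, the membrane-anchored collagenase that activates pro-MMP2, followed TIMP2 in direction. At 48 h probe set 202827_s_at read 4.97, 4.79 and 5.19 in Kbr arrays, against 6.30, 5.60 and 6.73 in control arrays, so that every Kbr array was below every control. At 24 h it read 6.14, 5.56 and 5.33 in Kbr arrays, against 6.96, 6.13 and 6.47 in control arrays, where Kbr replicate 1 lay level with control replicate 2. The 48 h difference of -1.23 passed (SE 0.30, limma adjusted p = 0.00476), a level 0.426 times that of control, and did so without any one array (-1.53 to -0.97). The 24 h difference of -0.84 missed the threshold (SE 0.30, limma adjusted p = 0.0538, 95% interval -1.51 to -0.18) and passed with the replicate block (0.0185). It also passed without Kbr 24 h replicate 1 (0.0339), control 24 h replicate 2 (0.0419), control 48 h replicate 2 (0.0292) or control 48 h replicate 3 (0.0397).

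A further MMP14 probe set, 160020_at, read 5.52, 5.24 and 5.70 in Kbr and 6.10, 5.77 and 6.05 in control arrays at 48 h, again without overlap. Its difference of -0.49 was smaller (SE 0.20, limma adjusted p = 0.0562 over all probe sets, 0.0129 with the block), and that at 24 h was -0.43 (limma adjusted p = 0.137, 0.0369 with the block). The remaining 2 MMP14 probe sets stayed between 2.27 and 3.37 and were not tested. The gelatinase MMP2 and the stromelysin MMP3 were below the filter too, MMP2 at 2.14 to 2.45 over its 3 probe sets and MMP3 at 2.31 to 2.37. Of the set in which TIMP2 and MMP14 act on pro-MMP2, the 2 genes for the inhibitor and the membrane protease were therefore measured, and the one for the target had no signal over the filter.

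MMP1, the interstitial collagenase that starts the cleavage of fibrillar collagen, behaved in another way. At 48 h the Kbr arrays read 3.37, 3.85 and 4.71, against 6.97, 7.33 and 6.82 at 24 h. The control arrays read 2.92, 4.78 and 5.22 at 48 h, against 7.27, 7.26 and 7.49 at 24 h. Every 48 h array was below every 24 h array in both treatments, and Kbr and control overlapped at both times. In Kbr cultures MMP1 was -3.06 at 48 h against 24 h (SE 0.50, limma adjusted p = 0.00394), and in control cultures -3.03 (SE 0.50, limma adjusted p = 0.0172). Since 2 of 3 Kbr and 1 of 3 control arrays at 48 h lay under log2 4, the level of the filter, these sizes are not measured folds. The fall in control cultures was not called without control 24 h replicate 3 (0.0737) or with only the control groups in the fit (0.112), while that in Kbr cultures was called in every refit that left out 1 array.

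Against control, MMP1 differed by -0.30 at 24 h (SE 0.50, limma adjusted p = 0.683) and by -0.33 at 48 h (limma adjusted p = 0.594), with 95% intervals of -1.41 to 0.81 and -1.44 to 0.78. These intervals leave room for a change of more than 2-fold in the downward direction. The 48 h control arrays spread widely, with an SD of 1.22 against 0.68 in the Kbr 48 h arrays. Without control 48 h replicate 1, the lowest of all 12 arrays, the 48 h difference was -1.02 and passed (limma adjusted p = 0.024), and without control 48 h replicate 3 it was 0.12.

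Urokinase, PLAU, gave lower readings after Kbr in each replicate number. At 24 h probe set 205479_s_at read 10.37, 10.34 and 11.02 in Kbr arrays, against 11.35, 11.06 and 11.85 in control arrays. At 48 h it read 9.66, 9.74 and 11.21 in Kbr arrays, against 10.85, 10.47 and 11.45 in control arrays. The groups were separate at 24 h by a narrow margin, and at 48 h Kbr replicate 3 lay above 2 of the 3 control arrays. Within a replicate number, Kbr minus control ran from -0.98 to -0.72 at 24 h and from -1.19 to -0.24 at 48 h, with replicate 3 the smallest at 48 h. Without the block neither difference passed, at -0.84 (SE 0.41, limma adjusted p = 0.138, 95% interval -1.74 to 0.06) and -0.72 (SE 0.41, limma adjusted p = 0.152, 95% interval -1.62 to 0.18). With it both did (0.00535 at 24 h and 0.00665 at 48 h), and the 24 h difference also passed with only the 24 h groups in the fit (0.049).

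Leaving out Kbr 48 h replicate 3 brought both PLAU differences under the threshold without a block, at an unchanged -0.84 at 24 h (limma adjusted p = 0.0422), where that array enters only the estimate of spread, and -1.22 at 48 h (limma adjusted p = 0.00768). With the block and without that array the 48 h difference was -0.99 (limma adjusted p = 9.88e-05). The second PLAU probe set, 211668_s_at, differed by -0.88 at 24 h and -0.86 at 48 h, close to the first, and likewise passed only with the block (0.00805 and 0.00457).

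PLAUR, the urokinase receptor, was the one member of 6 with higher values in Kbr cultures. At 24 h probe set 211924_s_at read 7.58, 7.40 and 8.43 in Kbr arrays, against 6.63, 6.65 and 7.41 in control arrays. At 48 h it read 6.13, 6.55 and 8.19 in Kbr arrays, against 5.87, 5.85 and 6.48 in control arrays. The groups touched at 24 h, where Kbr replicate 2 was just below control replicate 3, and overlapped at 48 h. Kbr minus control within a replicate number was 0.75 to 1.03 at 24 h and 0.26 to 1.71 at 48 h, the last from replicate 3. The differences were 0.91 at 24 h (SE 0.48, limma adjusted p = 0.167, 95% interval -0.14 to 1.96) and 0.89 at 48 h (SE 0.48, limma adjusted p = 0.13, 95% interval -0.16 to 1.94), neither called. With the replicate block both passed (0.0128 and 0.00849).

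The 48 h size of the PLAUR difference rested on 1 array. Without Kbr 48 h replicate 3 it was 0.27 (limma adjusted p = 0.523), and with the block and without that array 0.53 (limma adjusted p = 0.00838), whereas without Kbr 48 h replicate 1 it was 1.30 (limma adjusted p = 0.0399). The 24 h difference, to which that array contributes only spread, passed without it (limma adjusted p = 0.0441). Probe set 210845_s_at read 5.99, 6.82 and 7.98 in Kbr and 4.83, 5.11 and 6.44 in control arrays at 48 h, and its difference of 1.47 passed without a block (SE 0.53, limma adjusted p = 0.0358 over all probe sets), while that of 0.78 at 24 h passed only with it (0.0126, against 0.303 without). For 214866_at the differences were 0.09 at 24 h (95% interval -0.57 to 0.76) and 0.48 at 48 h (95% interval -0.18 to 1.14), the second passing with the block (0.0161). At 24 h this probe set read 5.65, 6.02 and 6.17 in Kbr arrays, against 5.73, 5.59 and 6.24 in control arrays, so that Kbr was the lower in replicates 1 and 3. The mean differences of the 3 PLAUR probe sets thus shared a sign but not a size.

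**Figure D2:**
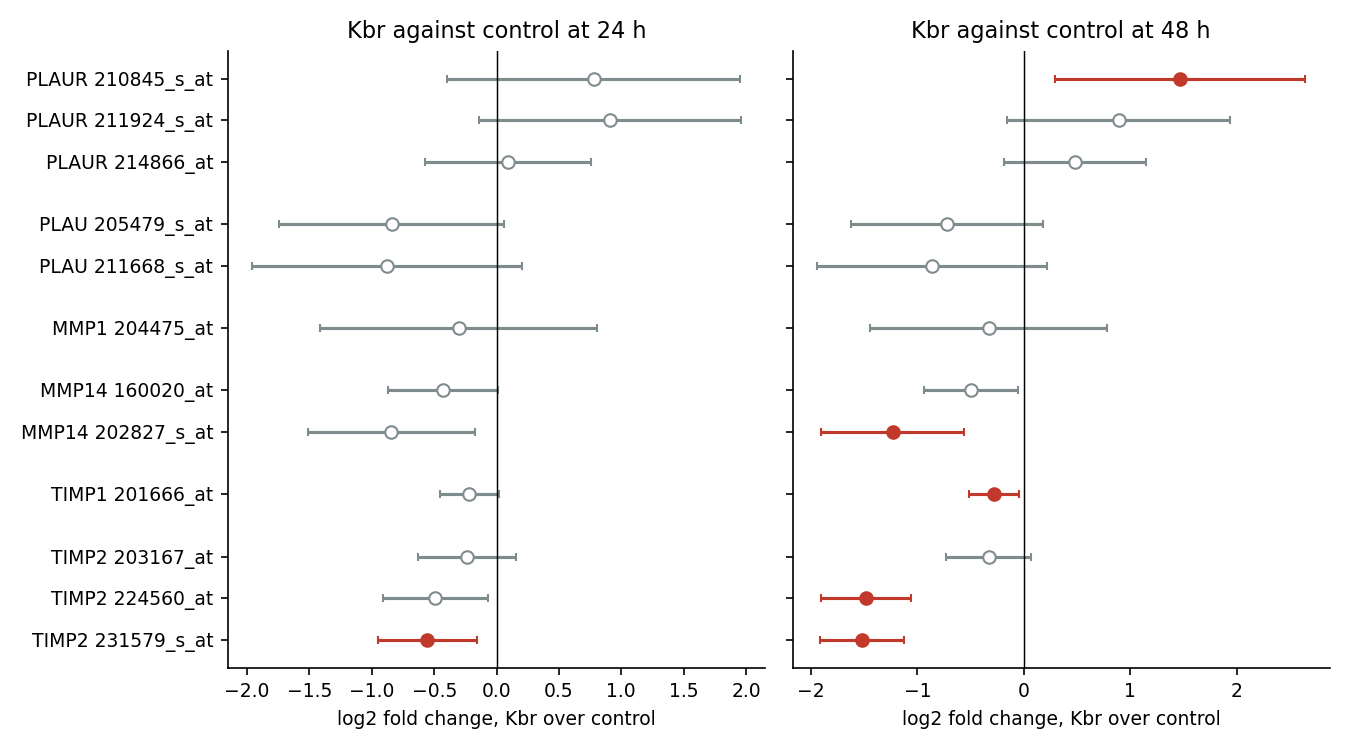
Log2 fold change of Kbr over control with its 95% interval for each of the 12 member probe sets past the filter, at 24 h on the left and 48 h on the right, with filled points for limma adjusted p under 0.05 over all probe sets. The called points at 48 h are 2 of 3 TIMP2 probe sets, 1 of 2 for MMP14, the TIMP1 probe set and 1 of 3 for PLAUR.

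In all, 1 of 6 tested members was called at 24 h, where 32.4% of the 10574 genes tested were called and 20% were lower, and 3 of 6 at 48 h, where 59.6% were called and 32.8% were lower. With the replicate block the counts were 4 of 6 at 24 h, against 48% of all genes, and 5 of 6 at 48 h, against 69.4%. These shares lie near those of the whole array, so the counts alone do not set the members apart. Arrays did not overlap for 3 of 6 members at 24 h (PLAU, TIMP1 and TIMP2), against 51.6% of all genes, and for 2 of 6 at 48 h (MMP14 and TIMP2), against 62.8%. The median log2 difference over the 6 members was -0.43 at 24 h and -0.53 at 48 h, against -0.06 for all tested genes at both times.

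At the probe sets used for the genes, the Kbr effect itself differed between the times for TIMP2 alone among the 6, where 5.58% of all genes were called and 3.49% in the downward direction. Its 48 h difference from control minus its 24 h difference was -0.96 (SE 0.25, limma adjusted p = 0.0495, 0.0115 with the block). That call stood close to the threshold: it was kept without Kbr 48 h replicate 3 or control 24 h replicate 1 and lost on leaving out any one of the other 10 arrays (0.0519 to 0.119). Fitted over all probe sets, 231579_s_at missed the threshold (limma adjusted p = 0.054, 0.0137 with the block). Probe set 224560_at gave -0.99 (limma adjusted p = 0.0611, 0.00997 with the block). For 203167_at the value was -0.09 (limma adjusted p = 0.869, 95% interval -0.65 to 0.46), and it did not pass with the block (0.729). For the other 5 members the 95% intervals of this difference were -1.33 to 0.56 for MMP14, -1.60 to 1.54 for MMP1, -1.15 to 1.39 for PLAU, -1.50 to 1.47 for PLAUR and -0.39 to 0.26 for TIMP1. They do not show that the response was equal at the 2 times.

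Over time, 2 of 6 members fell in Kbr cultures, where 17.1% of all genes were called and 10% were lower, and 1 of 6 in control cultures, where 4.03% were called and 2.3% were lower. MMP1 fell in both. TIMP2 was -0.80 at 48 h against 24 h in Kbr cultures (SE 0.18, limma adjusted p = 0.0137, 0.0541 without Kbr 24 h replicate 1 and 0.0625 without Kbr 48 h replicate 2), and 0.16 in control cultures (95% interval -0.23 to 0.55). Over all probe sets, the TIMP2 value in Kbr cultures was -0.79 at 224560_at (limma adjusted p = 0.0229) but only -0.20 at 203167_at (limma adjusted p = 0.506). PLAUR was -0.85 in Kbr cultures (limma adjusted p = 0.247) and -0.83 in control cultures (limma adjusted p = 0.34), and passed in both with the block (0.0244 and 0.0384). Without Kbr 48 h replicate 3 the PLAUR value in Kbr cultures was -1.47 (limma adjusted p = 0.0122). These comparisons share their arrays with those of Kbr against control.

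Replicate 3 gave the highest PLAU and PLAUR readings of its group in all 4 groups. For PLAUR it exceeded the mean of replicates 1 and 2 by 0.94 in Kbr 24 h, 0.76 in control 24 h, 1.85 in Kbr 48 h and 0.62 in control 48 h, and for PLAU by 0.67, 0.65, 1.51 and 0.80 in the same groups. TIMP2 did not share this order, since replicate 3 was the lowest in both 24 h groups. PLAT, the tissue-type plasminogen activator and the other enzyme that turns plasminogen into plasmin, showed the widest split. It read 4.64, 4.12 and 6.71 in Kbr 24 h, against 6.81, 6.39 and 8.44 in control 24 h, and 3.99, 4.09 and 6.32 in Kbr 48 h, against 4.78, 5.19 and 7.19 in control 48 h. Kbr arrays were lower in 3 of 3 replicate numbers at both times, with Kbr minus control at -2.27 to -1.74 at 24 h and -1.09 to -0.79 at 48 h, although the groups overlapped at each time.

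The PLAT difference was -2.06 at 24 h (SE 0.89, limma adjusted p = 0.1) and -0.92 at 48 h (SE 0.89, limma adjusted p = 0.398), and both passed with the block (8.2e-05 and 0.00151). Without Kbr 24 h replicate 3 the 24 h difference was -2.83 and passed without a block (0.044). The effect was smaller at 48 h by 1.14 (limma adjusted p = 0.634, 0.0176 with the block). Kbr replicates 1 and 2 read 4.64 and 4.12 at 24 h, and 3.99 and 4.09 at 48 h. These lie at or near log2 4, the level of the filter, so the PLAT sizes and their change with time are not measured folds. At the probe sets used for the genes, both plasminogen activators were thus lower, and the urokinase receptor higher, in every Kbr culture than in the control culture of the same number and time, which PLAUR probe set 214866_at did not share at 24 h. MMP14, TIMP1 and TIMP2 also kept 1 sign in every replicate number at both times, so this does not set the urokinase genes or PLAT apart.

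**Figure D3:**
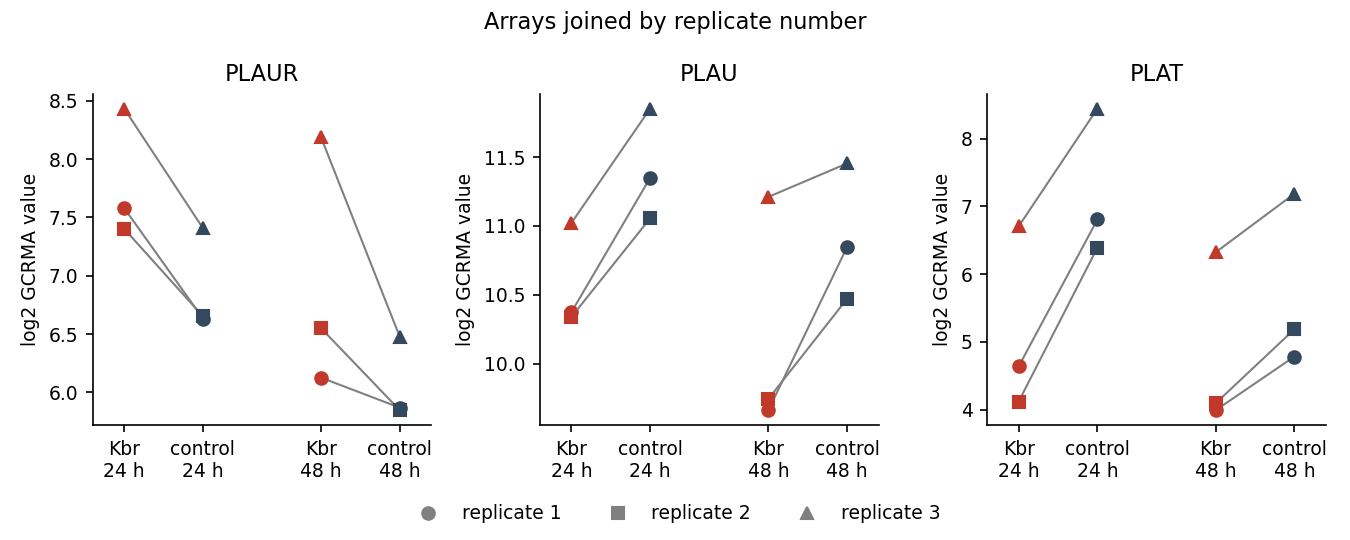
Log2 GCRMA values of PLAUR, PLAU and PLAT with lines joining the Kbr array (red, left) and the control array (blue, right) of the same replicate number at each time. Every PLAUR line slopes down toward control and every PLAU and PLAT line slopes up, with replicate 3 above the others in each group.

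The wider plasminogen system had 11 tested genes of 16 on the array, and at 48 h 5 fell and 1 rose. The median difference was -0.43 at 24 h and -0.68 at 48 h. HPN, the surface serine protease hepsin, which can activate pro-urokinase, changed by -1.53 at 24 h (limma adjusted p = 0.00673) and by -3.11 at 48 h (limma adjusted p = 2.33e-05). PLGRKT, a plasminogen receptor of the cell membrane, changed by -0.90 at 24 h (limma adjusted p = 0.000727) and by -1.75 at 48 h (limma adjusted p = 2.38e-06). SERPINF2, the antiplasmin that inactivates plasmin, was below its 48 h controls after Kbr (limma adjusted p = 0.00418) and is 1 of the 5 counted as lower. Its Kbr mean there was 2.95 (SD 0.007), under the filter, and its control mean was 4.30. It passed the filter only through control arrays, so no fold is given. The remaining called genes at 48 h were named after their values were seen: S100A10, a plasminogen-binding partner of annexin A2, at -0.94, TFPI2, a Kunitz inhibitor of plasmin, at -0.68, and SERPINE2, protease nexin, which inhibits urokinase and thrombin, at 0.72. The TFPI2 call was lost without Kbr 48 h replicate 1 (limma adjusted p = 0.0802) or 2 (0.0911), or without control 48 h replicate 1 (0.057) or 3 (0.092). It was also lost with the mean of all probe sets (-0.37, 0.0893), with no filter (0.0637) and with only the 48 h groups (0.0616). With the block TFPI2 passed at 48 h (0.000725). The block raised the count to 6 lower at 24 h, and to 6 lower and 1 higher at 48 h, PLAT among the lower genes at both times.

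Of the other metalloproteinases 7 of 18 on the array were tested, and none rose. MMP24, a membrane-type enzyme, changed by -0.65 at 24 h (SE 0.18, limma adjusted p = 0.0168), the only one of 7 to pass there, and by -0.83 at 48 h (limma adjusted p = 0.00196). Its 24 h call was lost without Kbr 24 h replicate 2 (0.0664) or control 24 h replicate 1 (0.0688). At 48 h the membrane-type enzymes MMP15 and MMP16 were lower, at -1.25 (limma adjusted p = 0.00034) and -0.95 (limma adjusted p = 0.00142). Their Kbr 48 h arrays averaged 4.38 and 4.49, little above the log2 4 of the filter, so these sizes are not measured folds. Matrilysin, MMP7, which lacks the domain that most of the family uses to bind substrates, fell by 1.05 at 48 h (limma adjusted p = 0.00886). The median over the 7 was -0.44 at 24 h and -0.83 at 48 h, and with the block 3 fell at 24 h.

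Among ADAM and ADAMTS proteases 10 of 22 were tested, with 1 lower at 24 h and 3 lower and 1 higher at 48 h. ADAMTS3, which trims procollagens, changed by -0.69 at 24 h (limma adjusted p = 0.00674) and by -1.69 at 48 h (limma adjusted p = 7.66e-06). The proteoglycan-cleaving ADAMTS9 fell by 1.83 at 48 h (limma adjusted p = 0.000382). ADAMTS5, which also cleaves proteoglycans, was below its 48 h controls after Kbr (limma adjusted p = 0.000454) and is 1 of the 3 counted as lower. Its Kbr means were 3.30 at 24 h and 3.09 at 48 h, while its control means were 4.05 and 6.09. The Kbr arrays were under the filter at both times and only control arrays carried ADAMTS5 past it. No fold is given, and a fall over time within Kbr cultures is not meant. ADAM9, a membrane sheddase, rose by 1.27 at 48 h (limma adjusted p = 0.000725) and was chosen for naming once its value was known. The median over the 10 was -0.09 at 24 h and -0.29 at 48 h, and with the block 1 was higher and 3 lower at 24 h, and 2 higher and 4 lower at 48 h.

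Of the 20 activators and inhibitors of matrix proteases at the cell surface, 13 were tested, with 3 lower at 24 h and 5 lower at 48 h, none higher, and medians of -0.26 and -0.24. PRSS8, the membrane protease prostasin, changed by -1.47 at 24 h (limma adjusted p = 0.0212) and -1.56 at 48 h (limma adjusted p = 0.00793). SPINT1, an inhibitor of matriptase and hepsin, changed by -0.82 at 24 h (limma adjusted p = 0.041) and -1.22 at 48 h (limma adjusted p = 0.00284). Both 24 h calls were lost without Kbr 24 h replicate 2 (0.0616 for PRSS8 and 0.132 for SPINT1), without Kbr 24 h replicate 3 (0.0761 and 0.0941) or without control 24 h replicate 1 (0.0871 and 0.158), and that of SPINT1 also without control 24 h replicate 3 (0.0692). The integrin chain ITGAV fell by 0.45 at 24 h (limma adjusted p = 0.00409), and the proteoglycan SPOCK1 fell by 0.78 at 48 h (limma adjusted p = 0.00248). ITGAV was also lower at 48 h, at -0.51 (limma adjusted p = 0.000643). SPINT2, a related inhibitor named after its value was seen, fell by 0.46 at 48 h (limma adjusted p = 0.0245), a call lost without Kbr 48 h replicate 2 (0.0963) or control 48 h replicate 1 (0.0915) or 3 (0.0697). With the block the counts were 5 lower at 24 h and 7 lower at 48 h.

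Lysosomal cathepsins and cystatins, of which 13 of 15 were tested, had 3 lower and 1 higher at 24 h and 8 lower and 1 higher at 48 h, with medians of -0.19 and -0.42. The cysteine protease CTSF changed by -0.82 at 24 h (limma adjusted p = 0.00625) and -2.03 at 48 h (limma adjusted p = 6.48e-06). CTSH, another cysteine protease, changed by -0.68 at 24 h (limma adjusted p = 0.0141, 0.0621 without control 24 h replicate 1) and -1.90 at 48 h (limma adjusted p = 8.29e-06). CTSS fell by 1.10 at 48 h (limma adjusted p = 0.00274). CTSL, cathepsin L, was the one that rose, by 0.38 at 24 h (limma adjusted p = 0.0228) and 0.54 at 48 h (limma adjusted p = 0.00153). Its 24 h call was lost without Kbr 24 h replicate 1 (0.0615) or 3 (0.0769), or without control 24 h replicate 1 (0.0514) or 2 (0.0846). The third gene lower at 24 h, CSTB, the cathepsin inhibitor cystatin B, was named after its value was seen. It was -0.37 (limma adjusted p = 0.0383), which was lost without Kbr 24 h replicate 1 (0.109) or 2 (0.111), Kbr 48 h replicate 2 (0.0501) or control 24 h replicate 1 (0.104), 2 (0.0649) or 3 (0.0844). The CSTB call was also lost with the mean of all probe sets (-0.21, 0.201) and with no filter (0.0571). With the block 6 were lower and 1 higher at 24 h, and 9 were lower and 1 higher at 48 h. The counts in the 5 lists are to be read against all tested genes, of which 20% were lower and 12.4% higher at 24 h, and 32.8% lower and 26.9% higher at 48 h. With the block 29.4% were lower and 18.6% higher at 24 h, and 38.1% lower and 31.3% higher at 48 h.

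**Figure D4:**
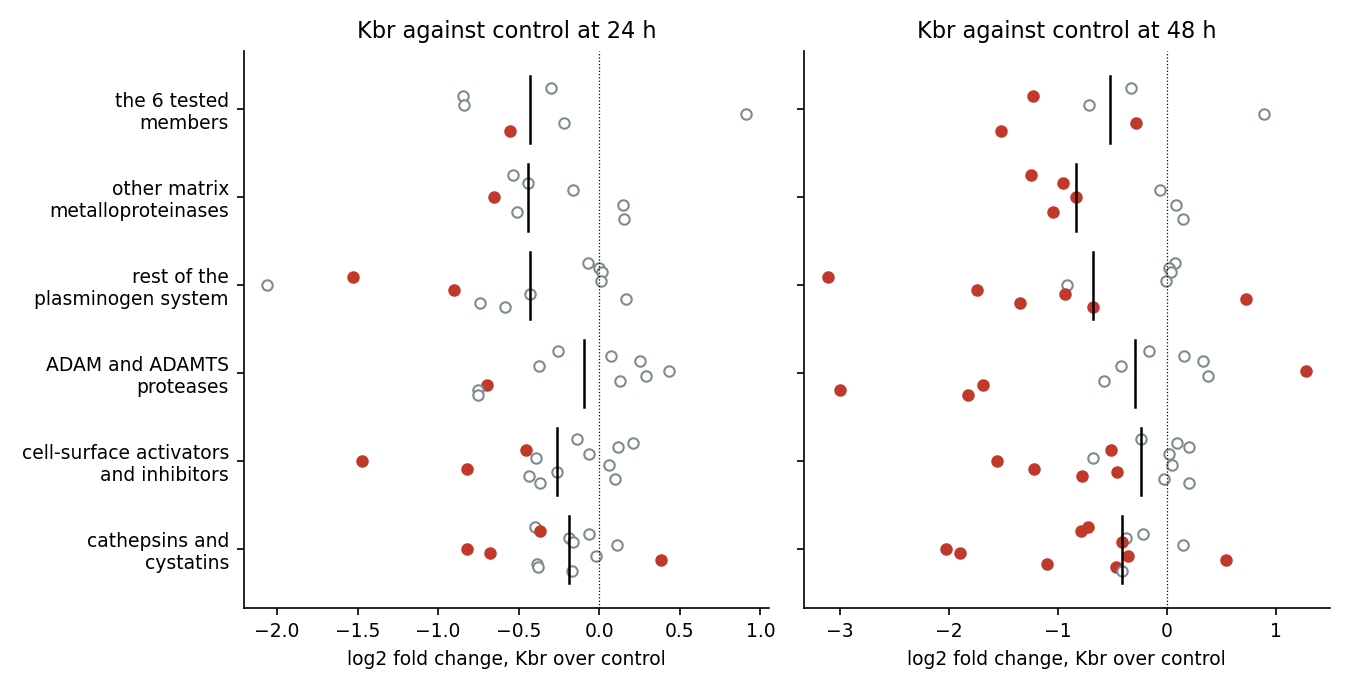
Log2 fold change of Kbr over control for each tested gene of 6 groups, at 24 h on the left and 48 h on the right, with filled points for limma adjusted p under 0.05 and a bar at each group's median. Medians lie between -0.44 and -0.09 at 24 h and between -0.83 and -0.24 at 48 h, and PLAUR is the open point at 0.91 and 0.89 in the top group.

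The gene whose log2 values followed each member most closely, and the one that ran most nearly opposite, were taken by Pearson correlation over the 12 arrays, which share 4 groups and 3 replicate numbers. TIMP2 was most like RALGDS, an activator of Ral GTPases (r = 0.991), and most opposite to SUCO (r = -0.987). MMP14 was most like CDCA7 (r = 0.975) and opposite to EMC7, a subunit of a membrane protein insertase (r = -0.949), while TIMP1 was most like NAXE, a repair enzyme for damaged nicotinamide cofactors (r = 0.967), and opposite to the noncoding RNA GAS5 (r = -0.971). PLAU was most like MRPL41, a protein of the mitochondrial ribosome (r = 0.951), and opposite to LRRC58 (r = -0.956). PLAUR was most like PRPS1, which makes phosphoribosyl pyrophosphate (r = 0.962), and opposite to SNAP25, a membrane fusion protein (r = -0.977). MMP1 was most like GINS1, a subunit of the replication helicase (r = 0.967), and opposite to the noncoding RNA HEIH (r = -0.945). Among the members, PLAU and TIMP1 were the most alike pair (r = 0.883), followed by MMP14 and TIMP2 (r = 0.873), and PLAUR and TIMP2 had the lowest correlation (r = -0.340).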

How the data were processed

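The authors made the deposited log2 values of the 12 arrays with GCRMA, per the submitters' processing notes, which name no version. GCRMA corrects background by probe sequence and normalizes between arrays, which compresses low values. With 3 arrays per group, precision is limited by their number.

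Of 54675 probe sets, 41091 carried 1 gene symbol and 1801 several in the platform annotation, and only those with 1 were used. Each of 19775 genes was represented by its probe set with the highest mean over the 12 arrays, and 10574 exceeded log2 4 in at least 3 arrays and were tested. Group means were compared two-sided in R 4.3.3 with limma 3.58.1 (lmFit, eBayes), which left 8 residual degrees of freedom and added 2.87 prior ones. P-values were adjusted by Benjamini-Hochberg across the tested genes, separately per comparison, and called under 0.05. Probe sets were fitted separately in the same way. The 5 comparisons were Kbr against control at each time, the difference between these effects, and 48 h against 24 h in each treatment. SE is the moderated standard error and SD the spread over 3 arrays. Tables, motif searches and plots used Python 3.11.15, pandas 2.3.3 and matplotlib 3.10.9. Promoter windows are RefSeq's for GRCh38.p14.

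Replicates 1 to 3 are numbered alike in all groups by the labels. Deviations from the group means correlated at 0.232 to 0.633 in 18 pairs of same-numbered arrays and at -0.378 to -0.004 in 36 other pairs, which pairs the arrays by number. A second fit took the number as a block, leaving 6 residual degrees of freedom, and is given where it changes a call reported for a member or moves a list's counts. Unless the block is named, calls, figures and refits without an array ignore this pairing. Their spread therefore includes differences between replicate numbers.

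Of each list the 3 called genes with the largest change at each time were named, with PLAT in addition. Alternatives covered thresholds, the filter, probe set choice, normalization, an offset, the prior, the groups fitted, the block and each array left out. The block without Kbr 48 h replicate 3, and the alternatives for list genes, were added after seeing the data. The members and lists were chosen with earlier results of these data known. The fit was tested on simulated data.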

Additional observations from a re-analysis of the deposited data

Results flagged for a closer look

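For TIMP2 and for 4 genes of the related lists, the Kbr effect differed between the times by limma's interaction term, 48 h minus 24 h, on the log2 scale. Only the 6 tested members, PLAT and the list genes named for the largest called changes were looked at. That choice was made on the same arrays and favours genes with a large 48 h effect. Of all tested genes 5.58% were called for this term, and 3.49% in the downward direction. The difference was -0.96 for TIMP2 (adjusted p = 0.0495, 0.0115 with the replicate block), the value described above as close to the threshold. It was -0.99 for ADAMTS3 (adjusted p = 0.0312, 0.00864 with the block), -1.20 for CTSF (adjusted p = 0.0276, 0.0083 with the block), -1.22 for CTSH (adjusted p = 0.0246, 0.00356 with the block) and -0.85 for PLGRKT (adjusted p = 0.029, 0.015 with the block). In all 5 the Kbr arrays were lower than control at both times, and by more at 48 h. For ADAMTS3 the control cultures rose over time by 0.82 (limma adjusted p = 0.0252), while the Kbr cultures changed by -0.17 (0.489). For TIMP2 and PLGRKT the Kbr cultures fell, at -0.80 and -1.01, while the control cultures changed by 0.16 and -0.16, neither called. With no expression filter the calls of TIMP2, ADAMTS3, CTSF and CTSH were lost (adjusted p = 0.1, 0.0587, 0.0587 and 0.0529). Leaving out one array ended the ADAMTS3 call in 9 of 12 refits, that of CTSF in 6, that of CTSH in 4 and that of PLGRKT in 7.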

How the results depend on the processing

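Groups of 3 arrays limit these values. TIMP2 and MMP14 at 48 h and MMP1 in Kbr cultures over time kept their calls under every alternative run at the 0.05 threshold. With each probe set on its own, this holds for the probe set used for the gene. In that fit MMP14 probe set 160020_at (limma adjusted p = 0.0562) and TIMP2 probe set 203167_at (0.138) missed the threshold at 48 h. Counts of called members at 24 h were 1 in the fit as reported, 0 at an adjusted p under 0.01, with a 2-fold minimum, with no filter and with the mean of all probe sets, 2 with a log2 minimum of 6, 4 with the replicate block, 5 with the block without Kbr 48 h replicate 3, and 0 to 3 on leaving out one array. At 48 h they were 3 as reported, 5 with the block with and without that array, and 2 to 4 on leaving out one array. For the difference between times 1 became 0 at 0.01, with a 2-fold minimum, with no filter, with mean probe sets, with each probe set on its own and with median centring (0 to 1 on leaving out one array). In control cultures over time 1 became 0 at 0.01 and with only the groups compared, 2 with the block and 3 with the block without that array (0 to 1 on leaving out one array). In Kbr cultures 2 became 1 at 0.01 and with a 2-fold minimum, 4 with the block without that array, and 1 to 3 on leaving out one array. Among the 6 tested members the block changed no other call than those given above.

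Only values that were not called turned sign. The MMP1 difference between times was 0.0742 with an offset of 32, that of PLAUR 0.35 with mean probe sets and 0.0148 after quantile normalization, and that of PLAU -0.15 with the block without Kbr 48 h replicate 3. On leaving out one array these differences ranged from -0.72 to 0.43 for MMP1, -0.63 to 0.40 for PLAUR, -0.38 to 0.39 for PLAU and -0.149 to 0.0119 for TIMP1, and the 48 h MMP1 value from -1.02 to 0.12. The causes were not tested. The called values of the named list genes and the PLAT values kept their direction under every alternative run. Where all arrays were kept, 11 calls were lost and 3 gained, all 3 for PLAT with the block. On leaving out one array, with or without a block, 53 calls were lost and 4 gained over all such refits.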
